A study of Rattus norvegicus with 8 samples.

Results

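Genes of the glutathione, thioredoxin and NRF2 antioxidant systems were followed in neonatal rat cardiomyocytes, the contractile cells of the newborn heart kept in culture, 48 h after transfection with an siRNA against Echs1 (siECHS1) or with siNC. Echs1 encodes a mitochondrial enoyl-CoA hydratase of fatty acid and valine breakdown. The genes were taken by symbol from a list of 45, assigned to 9 roles. The rule itself uses symbols and no measured value, but the list and roles were chosen with earlier results of these data known. Of the 45 genes, 42 were among the 21017 genes listed, and Gstm2, Pgd and Akr1b8 were not analysed here. RNA from 4 libraries per group was sequenced, all 8 from heart cells of rats whose strain is given as SD. Whether the replicates are separate cultures or animals is not stated in the labels, and the p-values then measure only the spread between these libraries, which may be technical. Recovered library totals were 16953309 to 18237111 reads. Levels are given as FPKM, fragments scaled by gene length and library size, so that they can be set side by side between genes.

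NRF2, encoded by Nfe2l2, is a transcription factor that KEAP1 marks for degradation in unstressed cells. Oxidants and electrophiles modify KEAP1, and NRF2 then accumulates and binds antioxidant response elements of genes that make and recycle glutathione, reduce thioredoxin and detoxify aldehydes and quinones. Peroxidases and peroxiredoxins spend glutathione or thioredoxin to reduce peroxides, and NADPH restores both carriers. In heart muscle, mitochondrial respiration is a major source of superoxide, which superoxide dismutases turn into hydrogen peroxide.

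Echs1 itself averaged 1.33 ± 0.244 FPKM (SD, n = 4) in siNC and 0.516 ± 0.112 FPKM in siECHS1, which is 38.8% of siNC, with no overlap between the groups (exact two-sided permutation p = 0.0286, the smallest that 4 against 4 libraries allow). A second row with the same protein match, LOC100911186, was at 51.1% of siNC (limma adjusted p = 0.000272). Of the cardiomyocyte markers, 9 were tested and had mean levels of 25.4 to 1499 FPKM, summing to 4512–4712 FPKM in siNC and 4302–4568 in siECHS1. The 8 fibroblast markers tested summed to 2838–3039 FPKM in siNC and 3688–4051 in siECHS1. Most of these sums came from a single marker, which averaged 2428 FPKM over all libraries. The 3 fibroblast markers that were not called had log2 changes of -0.11 to -0.02. The 7 smooth muscle and pericyte markers tested summed to 4315–4411 FPKM in siNC and 4122–4488 in siECHS1, near the sums of the cardiomyocyte markers. Macrophage and leukocyte markers summed to 21.9–23.5 FPKM in siNC and 21.4–25.7 in siECHS1, where Ptprc, Adgre1, Cd163 and C1qb were at or near 0. The part of the fibroblast-marker difference in the results below was not tested, and in bulk RNA fewer cells of a type and less RNA per cell cannot be told apart. One library stood apart: siECHS1 replicate 4 was the highest of its group for 26 of 41 tested members (63.4%), against 30.1% of all tested genes. Among tested members shorter than 1000 bases it was highest for 11 of 13 (84.6%), against 49.2% of all tested genes of such length. Values without this library are given for the member counts, the mitochondrial grouping and the wider list.

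Between the groups, 9 of the 41 tested members rose after Echs1 knockdown, 6 fell and 26 were not called (limma on log2(FPKM + 1), Benjamini-Hochberg adjusted p under 0.05 over the 12616 genes whose mean reached 1 FPKM). The risen members were Nfe2l2, Nqo1, Gclc, Gpx3, Gstp1, Prdx1, Sod2, Cat and Akr1b10, and the fallen ones were Gsta4, Gstk1, Txnip, Txn2, Prdx2 and Prdx3. Calls covered 36.6% of tested members against 21.0% of all genes tested. By direction, 22.0% of members rose against 8.83% of all genes, and 14.6% fell against 12.2%. With all 8 libraries the fallen share thus lay close to the background. The list was chosen with earlier results of these data known, so these shares describe its genes and are not a test of them. The median log2 change of the tested members was 0.05, against -0.01 over all genes tested. The 4 libraries of each group did not overlap for 16 of 41 members (39.0%, against 25.2% of all genes), with siECHS1 higher for 12 and lower for 4, against 10.3% and 14.9% of all genes in these directions. Without siECHS1 replicate 4, 9 members rose and 9 fell (Gstm1, Prdx6 and Akr1b1 in addition). Each count was 22.0% of members, against 8.64% of all genes risen and 12.3% fallen in that fit. There the groups did not overlap for 23 of 41 members (56.1%, against 32.4% of all genes). The fallen count was 3 (7.32% of members) without siNC replicate 2 or 4, or without siECHS1 replicate 1, 2 or 3. Fewer of all genes fell in these fits too: 9.23% and 9.1% without siNC replicate 2 and 4. The share was 9.07% and 8.76% without siECHS1 replicate 1 and 2, and without its replicate 3, 1260 of 12597 genes fell. With all 8 libraries 14.6% of members and 12.2% of all genes fell, so both shares were lower in these fits. The fallen count was 4 (9.76%) without siNC replicate 3 and 7 (17.1%) without siNC replicate 1. In those fits 8.97% and 11.8% of all genes fell. The cause of the drop was not tested. Scaling by median of ratios gave 11 risen and 3 fallen members. Of all 12616 genes, 1268 rose and 1262 fell with this scaling, against 1114 and 1541 without it. By limma with all 8 libraries and no such scaling, 4 of the 8 fibroblast markers rose and 1 fell. Of the 9 cardiomyocyte markers 1 rose and 3 fell, and of the 7 smooth muscle and pericyte markers 1 rose and 1 fell. The shares of all genes were the same 8.83% and 12.2%.

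**Figure D1:**
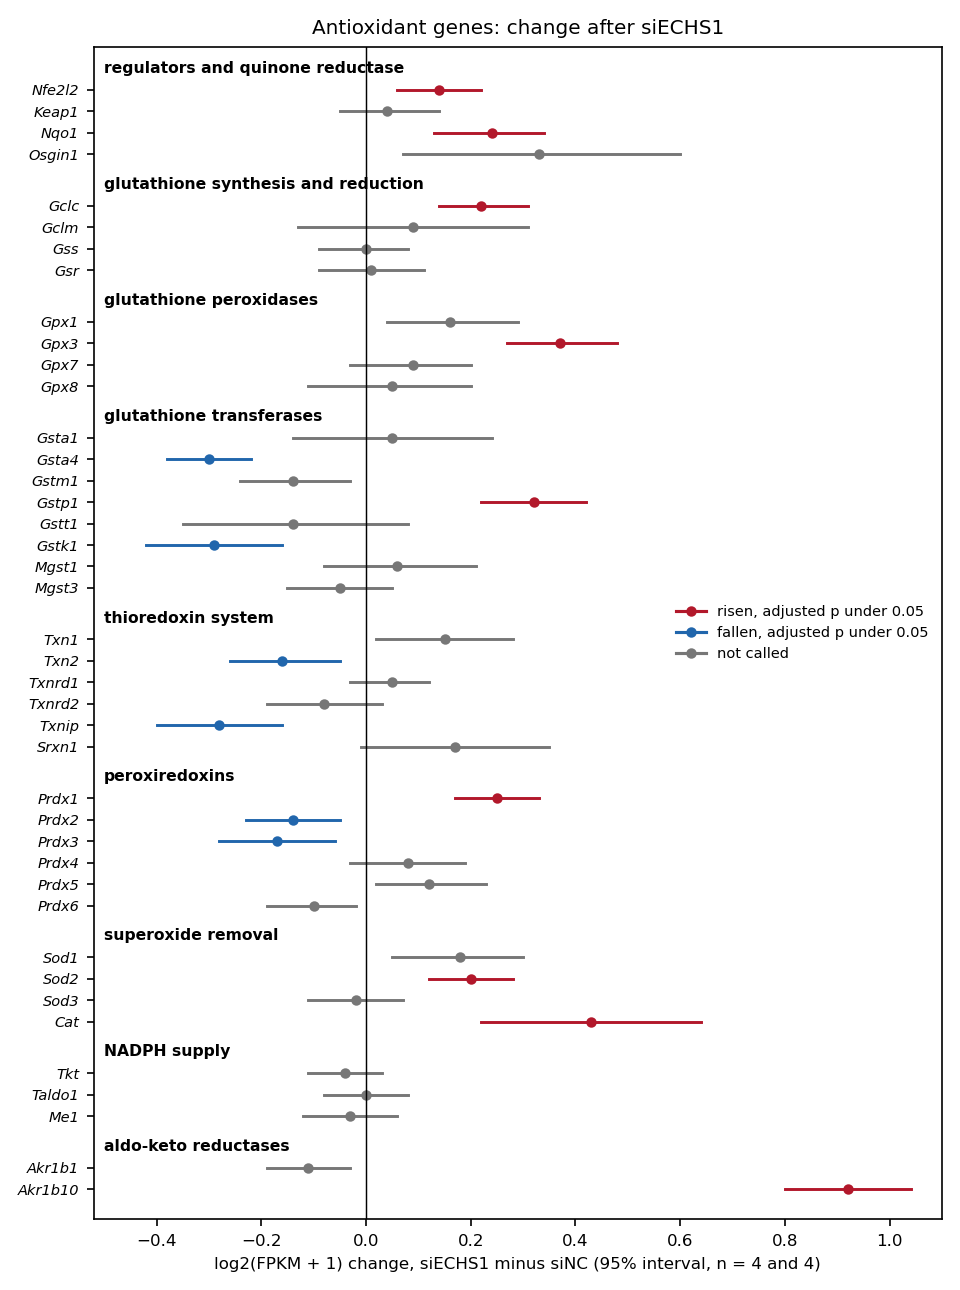
Log2 change (siECHS1 minus siNC, log2(FPKM + 1) scale) of the 41 tested antioxidant genes, grouped by role, with bars for the 95% confidence interval and colours for risen, fallen and not called. Akr1b10 stands far to the right at 0.92, Cat and Gpx3 follow at 0.43 and 0.37, and Gsta4, Gstk1 and Txnip lie lowest, between -0.30 and -0.28.

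Promoter sequences are shown for genes that carry the core of the antioxidant response element, to set that feature beside the direction of change. RefSeq promoter windows of the assembly GRCr8, 250 bases before to 50 bases after the gene start, were found by symbol for 35 of the 42 genes and searched on both strands for TGACNNNGC. This 9-base core held in 10 of 35 members (28.6%), in 4038 of 33469 promoters of the table (12.1%) and in 1419 of 9049 tested genes with a window (15.7%). By call it was in 4 of 9 risen members (Nfe2l2, Gstp1, Prdx1 and Sod2), in 0 of 5 fallen members with a window and in 6 of 20 that were not called (30%), among them Gclm, Me1 and Txnrd1. The lines below give the 250 bases before the start, 5′ to 3′ on the strand of the gene, with the match in capitals on either strand. Gstp1 lies at chr1:210769706-210769955 on the minus strand, Prdx1 at chr5:135383656-135383905 on the plus strand and Sod2 at chr1:50050169-50050418 on the minus strand, and these rose. Gclm at chr2:213031885-213032134 on the plus strand and Me1 at chr8:96540245-96540494 on the minus strand hold the core and were not called. Akr1b10 at chr4:64005382-64005631 on the plus strand rose most and holds no match in its window.
Gstp1: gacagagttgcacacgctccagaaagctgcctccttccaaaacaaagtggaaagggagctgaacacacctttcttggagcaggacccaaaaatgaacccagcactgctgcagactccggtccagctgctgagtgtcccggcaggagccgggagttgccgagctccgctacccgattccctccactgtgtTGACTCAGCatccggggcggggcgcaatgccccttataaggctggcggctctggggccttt
Prdx1: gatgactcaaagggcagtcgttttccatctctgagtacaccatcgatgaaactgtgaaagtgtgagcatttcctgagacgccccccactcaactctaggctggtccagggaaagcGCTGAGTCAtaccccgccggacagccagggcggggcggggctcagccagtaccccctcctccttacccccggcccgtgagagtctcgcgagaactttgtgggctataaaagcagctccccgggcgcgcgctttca
Sod2: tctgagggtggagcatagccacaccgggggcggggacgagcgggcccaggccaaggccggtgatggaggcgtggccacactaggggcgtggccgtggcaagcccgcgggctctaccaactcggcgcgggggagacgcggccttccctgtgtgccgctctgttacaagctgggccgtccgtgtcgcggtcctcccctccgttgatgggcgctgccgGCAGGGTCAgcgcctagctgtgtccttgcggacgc
Gclm: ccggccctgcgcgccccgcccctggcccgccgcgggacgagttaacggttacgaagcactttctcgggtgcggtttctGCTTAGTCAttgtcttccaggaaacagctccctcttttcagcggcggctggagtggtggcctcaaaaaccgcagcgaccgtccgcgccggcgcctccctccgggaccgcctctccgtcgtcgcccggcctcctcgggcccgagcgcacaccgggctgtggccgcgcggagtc
Me1: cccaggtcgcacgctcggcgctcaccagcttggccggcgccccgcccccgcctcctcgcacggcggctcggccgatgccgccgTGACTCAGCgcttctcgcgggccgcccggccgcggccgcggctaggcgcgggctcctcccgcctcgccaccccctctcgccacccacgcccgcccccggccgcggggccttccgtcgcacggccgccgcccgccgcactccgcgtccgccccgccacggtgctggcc
Akr1b10: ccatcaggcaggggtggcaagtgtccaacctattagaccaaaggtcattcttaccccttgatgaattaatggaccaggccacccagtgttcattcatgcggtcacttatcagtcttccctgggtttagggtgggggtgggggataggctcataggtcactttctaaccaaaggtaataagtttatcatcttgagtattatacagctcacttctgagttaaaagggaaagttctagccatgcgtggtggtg
The match in Gstp1 and Me1 has the same 9 letters, TGACTCAGC, and the match in Prdx1 reads the same on the other strand. Of these genes Gstp1 and Prdx1 rose, and Me1 was not called. A match is a description of these letters and not a binding site.

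Among the regulators and the quinone reductase, 2 of 4 tested genes rose (Nfe2l2 and Nqo1) and 0 fell by limma. At an unadjusted p under 0.05, and likewise by voom on recovered reads, 3 were higher (Osgin1 in addition) and 0 lower. By voom 1247 of all 12613 genes rose and 1699 fell. The share of all genes at the unadjusted threshold was not worked out. Such counts, here and in the roles below, are therefore not set against a background. Nfe2l2 was at 68.7, 67.4, 64.0 and 66.4 FPKM in siNC replicates 1 to 4, and at 72.9, 76.6, 73.9 and 70.9 in siECHS1. All siECHS1 libraries lay above all siNC libraries, by a small margin. The log2 change of Nfe2l2 was 0.14 (SE 0.04, limma adjusted p = 0.0204), and leaving out siNC replicate 3 or siECHS1 replicate 2 ended this call (adjusted p = 0.0622 and 0.0658). Keap1, the adaptor that brings NRF2 to its ubiquitin ligase, was at 19.1, 20.8, 19.7 and 21.2 FPKM in siNC, against 20.9, 20.1, 21.3 and 20.9 in siECHS1. These groups overlapped throughout, with a log2 change of 0.04 (95% confidence interval -0.05 to 0.14, limma adjusted p = 0.527). Nqo1, a quinone reductase and a standard readout of NRF2 activity, gave 26.2, 27.2, 26.6 and 29.1 FPKM in siNC, against 32.9, 30.9, 31.3 and 34.2 in siECHS1. The lowest siECHS1 library exceeded the highest siNC library, and the log2 change was 0.24 (SE 0.05, limma adjusted p = 0.00569). Osgin1, an oxidative stress-induced growth inhibitor, averaged 1.95 ± 0.405 FPKM in siNC and 2.72 ± 0.457 in siECHS1 with overlapping groups (log2 change 0.33, limma adjusted p = 0.0709).

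Of the 4 genes that make or recycle glutathione, Gclc rose and the other 3 were not called. Gclc, the catalytic subunit of glutamate-cysteine ligase, which sets the rate of glutathione synthesis, was at 22.2, 21.1, 22.0 and 21.5 FPKM in siNC, against 25.8, 26.0, 25.8 and 24.3 in siECHS1. Every siECHS1 library was higher, and replicate 4 was the lowest of them. Its log2 change was 0.22 (SE 0.04, limma adjusted p = 0.00276). Gclm, the modifier subunit of the same enzyme, was at 15.4, 12.6, 15.1 and 13.3 FPKM in siNC, against 14.2, 18.1, 12.7 and 15.4 in siECHS1. Its groups overlapped over most of their range, and the interval of the log2 change ran from -0.13 to 0.31 around 0.09 (limma adjusted p = 0.587). Gss, glutathione synthetase, stood at 34.2 ± 1.39 FPKM in siNC and 34.1 ± 0.701 in siECHS1, and Gsr, which reduces oxidised glutathione with NADPH, at 24.4 ± 0.401 and 24.6 ± 1.31. Their 95% confidence intervals of the log2 change were -0.09 to 0.08 and -0.09 to 0.11.

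Of the glutathione peroxidases, 1 of 4 tested genes rose and 0 fell by limma. At an unadjusted p under 0.05, and likewise by voom, 2 were higher (Gpx1 in addition) and 0 lower. Gpx3, the secreted plasma peroxidase, had the highest level of all members, with 705, 748, 722 and 797 FPKM in siNC, against 921, 936, 979 and 1009.9 in siECHS1. The groups were well separated. Gpx3 rose by 0.37 on the log2 scale (SE 0.05, limma adjusted p = 0.000455), from 743 ± 40.2 to 961 ± 40.6 FPKM. Gpx1, the cytosolic and mitochondrial selenoenzyme, averaged 146 ± 6.24 FPKM in siNC and 164 ± 13.0 in siECHS1 with overlap (log2 change 0.16, limma adjusted p = 0.0581). It was called under 6 of 16 alternative settings, one of them leaving out siECHS1 replicate 3 (adjusted p = 0.0249). Gpx7 and Gpx8, peroxidases of the endoplasmic reticulum, had log2 changes of 0.09 and 0.05 and were not called. Gpx4, the phospholipid hydroperoxidase that guards membranes against ferroptosis, was listed with 0 to 3 recovered reads a library, below the level tested. Its row, on chromosome 7 from 12516352 to 12519154 on the minus strand as the table lists it, overlaps Sbno2 on the other strand (24.6 ± 0.437 FPKM in siNC and 23.9 ± 1.11 in siECHS1), and the handling of reads in the overlap is not stated. Summed over the listed peroxidases, the level was 994–1098 FPKM in siNC and 1237–1369.5 in siECHS1, of which Gpx3 made up most.

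**Figure D2:**
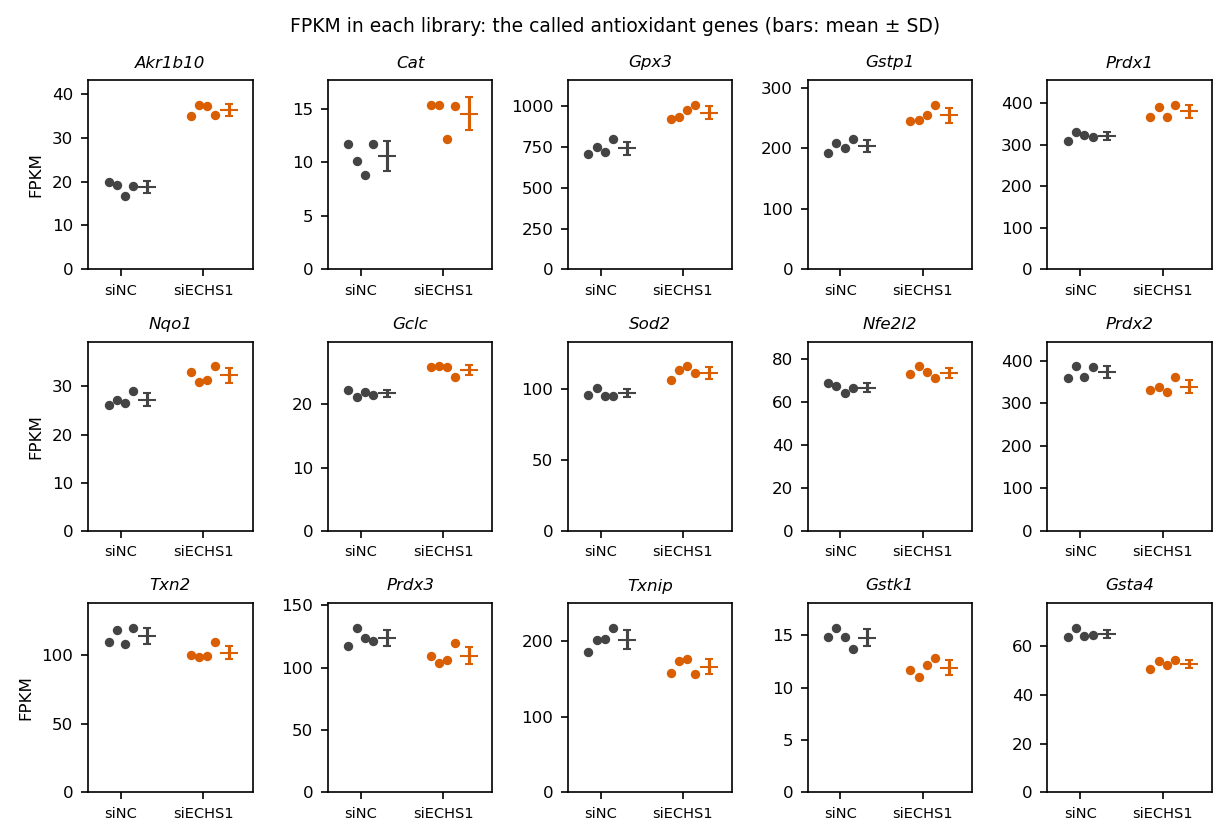
FPKM (vertical axis, from 0) in each library of siNC and siECHS1 for the 15 called members, 1 panel a gene, with points for libraries in order of replicate and bars for mean ± SD. The 9 risen genes and Gsta4, Gstk1 and Txnip show no overlap between siNC and siECHS1, while Txn2, Prdx2 and Prdx3 overlap.

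Glutathione transferases, which couple glutathione to electrophiles, moved in both directions: of 8 tested, Gstp1 rose, Gsta4 and Gstk1 fell and 5 were not called. Gstp1, the abundant pi-class enzyme with the core motif printed above, was at 192, 209, 200.4 and 215 FPKM in siNC, against 245, 247, 255 and 272 in siECHS1. All siECHS1 libraries were higher. Its log2 change was 0.32 (SE 0.04, limma adjusted p = 0.000903). Gsta4, which conjugates the lipid peroxidation product 4-hydroxynonenal, was at 63.9, 67.6, 64.4 and 64.7 FPKM in siNC, against 50.5, 54.0, 52.2 and 54.2 in siECHS1. Every siECHS1 library was lower. The log2 change of Gsta4 was -0.30 (SE 0.04, limma adjusted p = 0.000353), a 1.23-fold lower mean. Gstk1, the kappa-class transferase of mitochondria and peroxisomes, gave 14.8, 15.7, 14.8 and 13.7 FPKM in siNC, against 11.7, 11.0, 12.1 and 12.8 in siECHS1. These groups did not overlap either, and the log2 change was -0.29 (SE 0.06, limma adjusted p = 0.00555). Gstm1, a mu-class enzyme, was lower in every siECHS1 library (20.2 ± 0.257 against 18.3 ± 1.1 FPKM) but missed the threshold (limma adjusted p = 0.0601). The other transferases (Gsta1, Gstt1, Mgst1 and Mgst3) had overlapping groups and log2 changes of -0.14 to 0.06.

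In the thioredoxin system 2 of 6 tested genes fell and 0 rose by limma (1 at an unadjusted p under 0.05, Txn1, and 0 by voom). Txnip, which binds and inhibits reduced thioredoxin, was at 186, 202, 203 and 218 FPKM in siNC, against 158, 174, 176 and 157 in siECHS1. All siECHS1 libraries were lower, and Txnip fell by 0.28 on the log2 scale (SE 0.05, limma adjusted p = 0.00485). Txn2, the mitochondrial thioredoxin, was at 109, 118, 108 and 119.5 FPKM in siNC, against 99.5, 98.5, 98.9 and 109 in siECHS1. Its siECHS1 replicate 4 reached the lower siNC libraries, so the groups overlapped. The log2 change of Txn2 was -0.16 (SE 0.05, limma adjusted p = 0.0386), and it lost the call under 8 of 16 alternatives, among them leaving out siNC replicate 2 or 4 or siECHS1 replicate 1, 2 or 3 (adjusted p of 0.0909 to 0.103). Txnrd1, the cytosolic thioredoxin reductase and a classical NRF2 target, was at 65.1, 67.8, 68.1 and 66.0 FPKM in siNC, against 69.3, 70, 70.9 and 65.7 in siECHS1. Only siECHS1 replicate 4 of that group fell inside the siNC range, and the log2 change was 0.05 (95% confidence interval -0.03 to 0.12, limma adjusted p = 0.382). Srxn1, sulfiredoxin, which repairs overoxidised peroxiredoxins, was at 12.4, 16.0, 16.6 and 13.9 FPKM in siNC, against 17.4, 15.5, 17.3 and 16.2 in siECHS1. The groups overlapped, and the log2 change was 0.17 (95% confidence interval -0.01 to 0.35, limma adjusted p = 0.167). Txn1, the cytosolic thioredoxin, was higher in each siECHS1 library (132 ± 1.63 against 147 ± 14.6 FPKM) without passing the test (limma adjusted p = 0.105), and its siECHS1 replicate 4 was at 168 FPKM against 135 to 144 in the others. Txnrd2, the mitochondrial reductase, had a log2 change of -0.08 and was not called.

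Peroxiredoxins, the thioredoxin-dependent peroxidases, split: of 6 tested, Prdx1 rose and Prdx2 and Prdx3 fell. Prdx1, a cytosolic peroxiredoxin with the core motif in its promoter, was at 309, 332, 323 and 318 FPKM in siNC, against 368, 392, 368 and 397 in siECHS1. The groups did not overlap, and the log2 change was 0.25 (SE 0.04, limma adjusted p = 0.0014). A second row on chromosome 2 with the same best protein match, AABR07012795.1, averaged 46.2 ± 1.54 FPKM in siNC and 59.0 ± 3.95 in siECHS1, and the division of reads between both rows is uncertain. Prdx2, the other abundant cytosolic form, was at 359, 387, 362 and 386 FPKM in siNC, against 331, 338, 326 and 361 in siECHS1. Only siECHS1 replicate 4 reached into the siNC range. Its log2 change was -0.14 (SE 0.04, limma adjusted p = 0.041). Prdx3, the peroxiredoxin of the mitochondrial matrix, was at 117, 132, 124 and 121 FPKM in siNC, against 109, 104, 106 and 119.9 in siECHS1. Again siECHS1 replicate 4 alone lay within the siNC range, and the log2 change was -0.17 (SE 0.05, limma adjusted p = 0.0386). The calls of Prdx2 and Prdx3 were lost under 9 and 10 of 16 alternatives, both among them when siNC replicate 2, 3 or 4 or siECHS1 replicate 1, 2 or 3 was left out (adjusted p of 0.0567 to 0.108 for Prdx2 and 0.0651 to 0.108 for Prdx3). Prdx5 was higher in every siECHS1 library (205 ± 6.77 against 223 ± 14.7 FPKM, limma adjusted p = 0.0958), and Prdx4 and Prdx6 had log2 changes of 0.08 and -0.10, none of them called. Summed over the 6 genes the level was 1286–1372 FPKM in siNC and 1317–1456 in siECHS1, with overlap.

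Of the 4 genes that remove superoxide and hydrogen peroxide, Sod2 and Cat rose. Sod2, the manganese superoxide dismutase of mitochondria, was at 95.9, 101, 95.3 and 95.3 FPKM in siNC, against 106, 113, 116 and 111 in siECHS1. All siECHS1 libraries were higher, and the log2 change was 0.20 (SE 0.04, limma adjusted p = 0.0032). Cat, catalase, which splits hydrogen peroxide in peroxisomes, was at 11.7, 10.1, 8.84 and 11.7 FPKM in siNC, against 15.4, 15.4, 12.2 and 15.3 in siECHS1. Its siECHS1 replicate 3 lay just above the highest siNC libraries, while the others were well apart. Cat rose 1.38-fold, with a log2 change of 0.43 (SE 0.10, limma adjusted p = 0.011). Sod1, the copper-zinc enzyme of the cytosol, was higher in every siECHS1 library (258 ± 11.0 against 293 ± 25.6 FPKM) but stayed above the threshold (limma adjusted p = 0.0528), and siECHS1 replicate 4 was its highest library at 330.4 FPKM. Sod3, the extracellular enzyme, had a log2 change of -0.02 with overlapping groups.

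Of the 3 tested genes of NADPH supply, 0 were called by limma, 0 had an unadjusted p under 0.05 and 0 were called by voom on recovered reads. Tkt and Taldo1, of the non-oxidative pentose phosphate pathway, had 95% confidence intervals of the log2 change of -0.11 to 0.03 and -0.08 to 0.08, and Me1, cytosolic malic enzyme, of -0.12 to 0.06. Me1 averaged 43.4 ± 1.80 FPKM in siNC and 42.4 ± 1.33 in siECHS1, although its promoter window holds the core motif.

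Among the aldo-keto reductases, which reduce aldehydes with NADPH, Akr1b10 rose and Akr1b1 was not called. Akr1b10, known from human cells as an NRF2-responsive reductase of lipid-derived aldehydes, was at 20, 19.3, 16.8 and 18.9 FPKM in siNC, against 35.0, 37.5, 37.3 and 35.2 in siECHS1. The gap between the groups was wide beside the spread within either. Its mean rose 1.93-fold and its log2 change was 0.92 (SE 0.05, limma adjusted p = 6.56e-06), the most of any tested member in either direction. Akr1b1, aldose reductase, a far more abundant transcript, averaged 257 ± 7.78 FPKM in siNC and 238 ± 9.35 in siECHS1 with overlap (log2 change -0.11, limma adjusted p = 0.0625). Both genes lie on chromosome 4, Akr1b1 from 61706864 to 61720956 on the minus strand and Akr1b10 from 61771970 to 61828657 on the plus strand, as the table lists them.

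**Figure D3:**
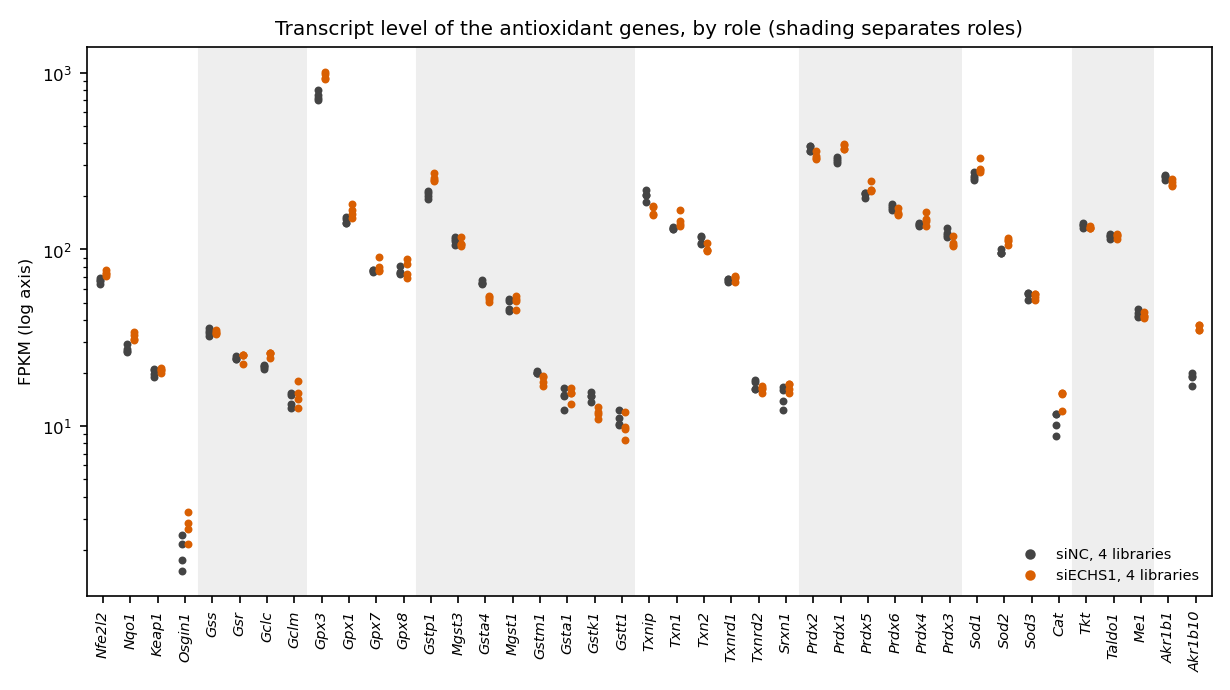
FPKM (log axis) of each of the 8 libraries for the 41 tested members, ordered by role and, within a role, by level, with shading between roles. The genes span a mean over all libraries of 2.33 FPKM (Osgin1) to 852 FPKM (Gpx3), and the gap between siNC and siECHS1 is widest for Akr1b10.

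Members whose cellular component annotation in the table names the mitochondrion or a part of it were 18 of the 41 tested. Of these, Gstp1, Prdx1, Sod2 and Cat rose and Gsta4, Gstk1, Txn2, Txnip and Prdx3 fell, that is 22.2% risen and 27.8% fallen, against 8.76% and 16.0% of the 1393 tested genes with such a term. Among the 23 members without the term, 5 rose and Prdx2 fell, that is 21.7% and 4.35%, against 8.84% and 11.7% of the 11223 tested genes without it. The fallen count with the term was 3 of 18 (16.7%) without siNC replicate 2 or 4, or without siECHS1 replicate 1, 2 or 3. In these fits 11.0% to 11.9% of all tested genes with the term fell. The fallen count without the term was 0 when any of these libraries or siNC replicate 3 was left out. Without siECHS1 replicate 4 it was 4 (17.4%). In that fit 5 members with the term fell (27.8%), against 18.7% of all tested genes with the term. The difference between the 18 and the 23 genes was not tested, and this grouping was made after the calls were known.

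A wider list of 96 further genes of the same systems was also chosen with earlier results of these data known. It gave 80 tested genes, of which 14 rose and 9 fell, or 17.5% and 11.2%, against 8.83% and 12.2% of all genes tested. Without siECHS1 replicate 2 the risen count was 9 (11.2%, against 6.29% of all genes). Without siECHS1 replicate 4 there were 13 risen and 10 fallen (16.2% and 12.5%, against 8.64% and 12.3% of all genes). Of the 11 other NADPH sources tested, 5 rose (Idh1, Idh2, Me3, Mthfd1 and Mthfd2) and Nnt fell. This risen count was 2 (18.2%) without siECHS1 replicate 2, where 6.29% of all genes rose. It was 3 (27.3%) without siNC replicate 1 or without siECHS1 replicate 1 or 3, against 6.67% to 9.38% of all genes. Idh1, the cytosolic and peroxisomal isocitrate dehydrogenase, was at 35.3, 34.5, 34.6 and 33.4 FPKM in siNC, against 40.2, 39.2, 39.1 and 38.8 in siECHS1. No siECHS1 library reached down to the siNC range, and the log2 change was 0.19 (SE 0.03, limma adjusted p = 0.00329). Nnt, the mitochondrial transhydrogenase that makes NADPH from NADH, was at 125, 129, 128 and 126 FPKM in siNC, against 113, 112, 112 and 107 in siECHS1. All siECHS1 libraries were lower (log2 change -0.19, limma adjusted p = 0.00185). Me3, a mitochondrial malic enzyme, and Mthfd2, of mitochondrial folate metabolism, each had a log2 change of 0.21 (limma adjusted p = 0.0187 and 0.00444), and the call of Me3 was lost without siECHS1 replicate 1 or 2 (adjusted p = 0.0559 and 0.0552).

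Of the other NRF2 target genes, 2 of 14 tested rose and 4 fell (Blvra, Ephx1, Nqo2 and Epas1). These were 14.3% and 28.6%, against 8.83% and 12.2% of all genes tested. Hmox1, haem oxygenase, was at 41.8, 43.8, 41.3 and 44.0 FPKM in siNC, against 47.6, 49.3, 48.8 and 51.0 in siECHS1. It was higher in every siECHS1 library (log2 change 0.20, limma adjusted p = 0.00424). Pir, pirin, rose by 0.55 (limma adjusted p = 0.00357), from 6.31 ± 1.17 to 9.60 ± 0.406 FPKM. Blvra, biliverdin reductase, which acts on the product of haem oxygenase, was at 23.5, 23.8, 22.5 and 25.8 FPKM in siNC, against 16.0, 16.2, 17.4 and 17.9 in siECHS1. The groups lay far apart, and the log2 change was -0.48 (SE 0.05, limma adjusted p = 0.000272). Nqo2, a relative of Nqo1, fell by 0.25 (limma adjusted p = 0.0239), a call lost without siNC replicate 3 or siECHS1 replicate 2 or 4 (adjusted p = 0.0648, 0.0656 and 0.054). Slc7a11, the cystine transporter, was below the level tested at 0.473 ± 0.0887 FPKM in siNC and 0.630 ± 0.0818 in siECHS1 (exact two-sided permutation p = 0.0857). Its partner chain Slc3a2 was at 126, 128, 134 and 132 FPKM in siNC, against 158, 163, 166 and 170.3 in siECHS1. That gene rose by 0.34 (limma adjusted p = 0.000166), and its chain also serves other amino acid transporters. Ftl1, the ferritin light chain, had a log2 change of 0.07 and was not called, and its level is uncertain because another row with the same protein match, LOC100360087, carried 666 ± 31.3 FPKM in siNC and 685 ± 42.5 in siECHS1.

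In the other roles of the wider list, partners and regulators of NRF2 showed 0 risen and 1 fallen of 11 tested by limma. The fallen share was 9.09%, against 12.2% of all genes tested. Sqstm1 was higher at an unadjusted p under 0.05 and by voom. Mafg, a small MAF partner, and Bach1, a repressor at the same elements, had log2 changes of -0.02 and 0.16 (limma adjusted p = 0.8 and 0.229). Btrc, a ubiquitin ligase adaptor that also acts on NRF2, fell by 0.19 (limma adjusted p = 0.0292), and this call was lost in 7 of 16 alternatives, without siNC replicate 2, 3 or 4 or siECHS1 replicate 1, 2 or 4 among them. Of 22 other glutathione enzymes 4 rose and 1 fell (18.2% and 4.55%, against 8.83% and 12.2% of all genes tested). Mgst2, a microsomal transferase, rose by 0.62 (limma adjusted p = 0.00447), and Gsta5 rose by 0.89 (limma adjusted p = 0.000458) on 7 to 45 reads a library, with a protein match shared with Gsta2. Gsta5 averaged 0.786 ± 0.265 FPKM in siNC and 2.29 ± 0.0665 in siECHS1, so it passed the filter only through the group where it was high, and its log2 change ranged from 0.78 to 1.58 over the alternatives. Chac1, which degrades glutathione, had a log2 change of 0.01 (95% confidence interval -0.14 to 0.16). Among the thioredoxin and methionine sulfoxide genes, Selenot rose by 0.23 (limma adjusted p = 0.00899), Sesn1, a sestrin, fell by 0.24 (limma adjusted p = 0.00707) and Selenow fell by 0.74 (limma adjusted p = 0.00693). Selenow had only 5 to 18 reads a library, at 2.57 ± 0.91 FPKM in siNC and 1.1 ± 0.125 in siECHS1. It shares its protein match with LOC103689961, which was at 4.2 ± 2.43 FPKM in siNC and 5.01 ± 2.66 in siECHS1. The division of reads between these rows is uncertain. Akr1e2, another aldo-keto reductase, rose by 0.26 (limma adjusted p = 0.0259), a call lost under 6 of 16 alternatives (adjusted p up to 0.0612), among them leaving out siNC replicate 1, 2 or 3 or siECHS1 replicate 2 or 4. Ncf1, a cytosolic subunit of the NADPH oxidase, rose by 0.26 (limma adjusted p = 0.0156), from 3.13 ± 0.0786 to 3.96 ± 0.279 FPKM.

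**Figure D4:**
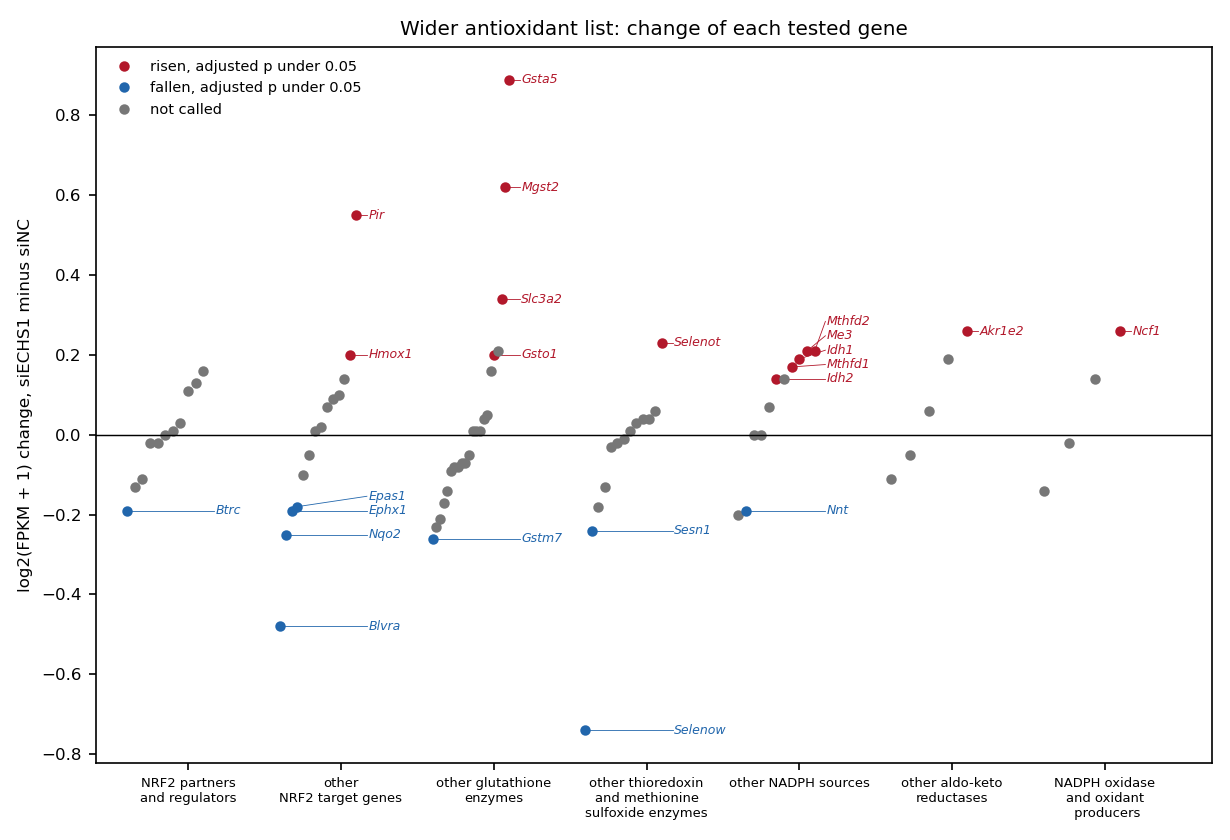
Log2 change (siECHS1 minus siNC, log2(FPKM + 1) scale) of the 80 tested genes of the wider list, by role, with risen and fallen genes named. Gsta5, which passed the filter only through its siECHS1 level, is plotted at 0.89, Mgst2 and Pir are at 0.62 and 0.55, Selenow, on few reads, is at -0.74, and 5 of the 11 NADPH sources are risen.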

How the data were processed

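RNA sequencing of 8 libraries (4 siNC, 4 siECHS1) was analysed from the FPKM values the authors deposited, 1 column per library. Per the labels' protocols, libraries were made from 1 µg of total RNA with a TruSeq RNA kit that leaves strand unmarked. Bowtie 0.12.2 and the builds Rnor_6.0 and mm8 are named, without a role, per the submitters' processing notes. Not given in the sources used here are the counting tool, its strand setting and its treatment of reads with several matches. Overlapping genes and rows with the same protein match may share reads.

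Groups came from the labels. Genes whose mean reached 1 FPKM (12616 of 21017) were tested as log2(FPKM + 1) with limma 3.58.1 (R 4.3.3), with a variance trend, and two-sided p-values were adjusted by Benjamini-Hochberg over these genes. Fold changes on this scale understate the change of low genes. Ratios are of mean FPKM. On simulated data with 12613 genes, 100 of them changed at each fold, 37% of 1.2-fold and 93% of 1.5-fold changes were recovered. The spread between simulated libraries was assumed and not estimated from these data. Reads were recovered from the steps of the FPKM values, whole within 0.01 of a read for 99.98% of tested genes, and served for depth and for an added alternative. Tables used pandas 2.3.3 under Python 3.11.15, and plots used matplotlib 3.10.9.

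The members, lists and roles were chosen with earlier results of these data known. Every called member, and Keap1, Gclm, Txnrd1 and Srxn1 whatever their result, are given library by library. From the wider list, 8 genes are named whatever their result (Hmox1, Slc7a11, Fth1, Ftl1, Chac1, Slc3a2, Mafg and Bach1), as are the 3 largest called changes in each role, ties included. Fth1 was not analysed here, and a few items are not reported here.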

Additional observations from a re-analysis of the deposited data

Results flagged for a closer look

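Among 128 groups of 4 libraries checked, 10 held a library far from the other 3 by Dixon's criterion, which chance meets in about 1 of 20 groups. In siECHS1 replicate 4, Txn2 was at 109 FPKM against 98.5 to 99.5 in the other libraries of its group, Prdx5 at 245 against 213 to 217, Gclc at 24.3 against 25.8 to 26.0 and Nnt at 107 against 112 to 113. Cat was at 12.2 FPKM in siECHS1 replicate 3 against 15.3 to 15.4, and Selenow in the same library at 1.28 against 1.03 to 1.04. Gsr in siECHS1 replicate 1 was at 22.6 FPKM against 25.2 in each of the others. Gsta5 in siECHS1 replicate 2 was at 2.39 FPKM against 2.24 to 2.26. Of the siNC libraries, replicate 2 had Sod2 at 101 FPKM against 95.3 to 95.9, and replicate 1 had Sod3 at 51.7 against 55.8 to 56.7. Of these genes, Txn2 lost its call in some alternatives, and Gclc, Cat, Nnt, Sod2, Gsta5 and Selenow kept theirs in all that tested them.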

How the results depend on the processing

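Of the 15 called members, 11 kept their call under all 16 alternatives (1 of them, voom on recovered reads, chosen after seeing the data), and none reversed. The exceptions were Nfe2l2, Txn2, Prdx2 and Prdx3. The number of fallen members, 6, became 3 with no filter, with median-of-ratios scaling and with no variance trend, and ranged from 3 to 9 when single libraries were left out. Of all genes, 1264 of 21017 fell with no filter. Of 12616, 1262 fell with that scaling and 1424 with no variance trend, against 1541 in the main fit. Risen members, 9, ranged from 8 to 12 over single libraries left out and over all alternatives. In the wider list, 14 risen ranged from 9 to 14 and 9 fallen from 8 to 10 with a library left out, and from 9 to 17 and 7 to 13 over all alternatives. Voom gave 12 risen and 7 fallen members, with 1247 risen and 1699 fallen of all 12613 genes it tested. Of the uncalled members, 7 were called in at least 1 alternative (Akr1b1, Gpx1, Gstm1, Osgin1, Prdx5, Prdx6 and Sod1). Leaving out siECHS1 replicate 4 gave calls for Gstm1, Prdx6 and Akr1b1 (limma adjusted p = 0.0366, 0.0235 and 0.0224), siECHS1 replicate 3 for Gpx1, Sod1 and Osgin1 (0.0249, 0.0453 and 0.0413), siNC replicate 1 for Akr1b1 (0.0375) and siNC replicate 2 for Osgin1 (0.0462). The labels do not say that a shared number pairs the libraries, so no block was used in the main fit. Same-numbered libraries deviated together with correlations of 0.173, -0.0507, 0.00719 and 0.075. The value of 0.173, for replicate 1, was the highest of any siNC library with any siECHS1 library, but not every library correlated best with its own number. With a replicate block, 11 members rose and 7 fell (wider list 17 and 13), and of all 12616 genes 1283 rose and 1669 fell. The cause of these differences was not tested. Simulated 1.2-fold changes were recovered in 37% of the genes given them, so a small change may be missed. The simulation changed 100 genes at each fold under an assumed spread, while 21.0% of genes were called in the data. The 37% is therefore not the power of this comparison.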
